A study of Mus musculus with 3 samples.

Results

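The 10 genes described here belong to fat-cell formation and to the uptake, carriage, storage and desaturation of fatty acids: Lpl, Cd36, Fabp4, Fabp5, Pparg, Cebpa, Cebpb, Plin2, Scd1 and Adipoq. They were chosen by name, with earlier results of these data known. All probes whose RefSeq accession maps to a member were taken. This gave 11 probes among the 39279 usable probes of the array and 10 of its 20825 named genes. Tail-tip fibroblasts were profiled with 1 one-colour microarray per group on day 8 after introduction of 4 reprogramming factors (Oct4, Sox2, Klf4 and c-Myc), which all groups carry. The groups were cells of young wild-type (WT) mice aged 2 months, of old WT mice aged 22 months, and of old p16-/- mice aged 22 months, which lack the cell cycle inhibitor p16 encoded by Cdkn2a. The study asked how donor age and loss of p16 bear on reprogramming intermediates. Strain, the number of donors behind an array and the way the factors were delivered are not given in the sources used here. The design text speaks of separate experiments on different donors, but each group had 1 array here, so no test was run, no difference has a replicate check, and having 1 array per group bounds how precise any value can be.

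As background, the nuclear receptor PPAR-gamma and the C/EBP factors form the transcriptional core of fat-cell differentiation: C/EBP-beta acts early, and PPAR-gamma and C/EBP-alpha then maintain each other and drive genes such as Fabp4, Lpl, Cd36, Plin1 and Adipoq. Lipoprotein lipase releases fatty acids from circulating triglyceride, CD36 helps them across the membrane, and fatty acid binding proteins carry them in the cytosol. Lpl, Cd36, Fabp5 and Plin2 are not restricted to fat cells and are also expressed by macrophages.

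Of the 10 members, 9 were well above background on all 3 arrays. The exception was Adipoq, the gene for the hormone adiponectin and the member most specific to mature fat cells, which failed the background call on all arrays, with processed signals of 14.1, 9.03 and 11.8 (young WT, old WT, old p16-/-). Several other genes of mature fat cells were alike in this: the lipid droplet genes Plin1 and Cidec, the hormone gene Lep and the adipsin gene Cfd did not pass the background call on any array, nor did the brown-fat gene Ucp1. Not all were: Plin4 passed it on all arrays, at 834, 733 and 866, and Lipe, Retn and Cidea passed on old p16-/- alone, at 137, 62.5 and 51.0. The fibroblast markers were well above background on all arrays for 10 of 10 genes. The name "adipocyte genes" refers here to the genes' known roles.

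Levels below are log2 processed signals relative to each array's 75th percentile over probes, and a difference between 2 arrays is a log2 ratio, where 1 is 2-fold. The WT comparison is old WT over young WT, the old-donor comparison is old p16-/- over old WT, and the outer comparison is old p16-/- over young WT. A gene counted in a comparison when a probe of it passed the scanner software's call "well above background" on either array compared. Because most members rest on 1 spot per array, the spread between replicate spots of other probes of similar brightness was taken as the technical error. The median SD between such spots was 0.12 to 0.14 at signals of 50 to 200, 0.07 to 0.08 at 200 to 1000, 0.05 at 1000 to 10000 and 0.04 to 0.05 above that. The value written below as spot SD combines those of both arrays. It covers hybridisation to one array and not differences between cultures or mice.

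The largest difference in the set was that of Lpl, the lipoprotein lipase gene, which was 6.89-fold brighter on old p16-/- than on old WT. Cd36, the fatty acid translocase gene, was lowest on old WT. Between old WT and young WT, 0 of the 9 detected members were at least 2-fold higher and 1, Cd36, was lower, where 6.09% of all 14546 genes counted were apart in either direction (2.92% higher and 3.17% lower). Between old p16-/- and old WT, 2 of 9 were at least 2-fold higher, Lpl and Cd36, and 0 lower, against 12.5% of 14691 genes apart (5.89% higher and 6.61% lower). Between old p16-/- and young WT, Lpl alone of the 9 was 2-fold apart, on the higher side, where 13.3% of 14281 genes were (6.34% higher and 6.96% lower). Among genes whose brighter signal reached 1000 the shares were 1.17%, 0.562% and 1.73% (higher, lower and either) in the WT comparison, 2.67%, 4.21% and 6.88% in the old-donor comparison, and 3.42%, 4.19% and 7.61% in the outer comparison; Lpl is the one member 2-fold apart at that brightness. Over 9 genes, counts of 0 to 2 are too small to set the members apart from these shares. The median log2 ratio of the 9 was -0.26, 0.05 and -0.20 in the 3 comparisons in that order, beside -0.00, 0.02 and 0.03 for all genes. The comparisons share arrays, so their values are not independent of each other.

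**Figure D1:**
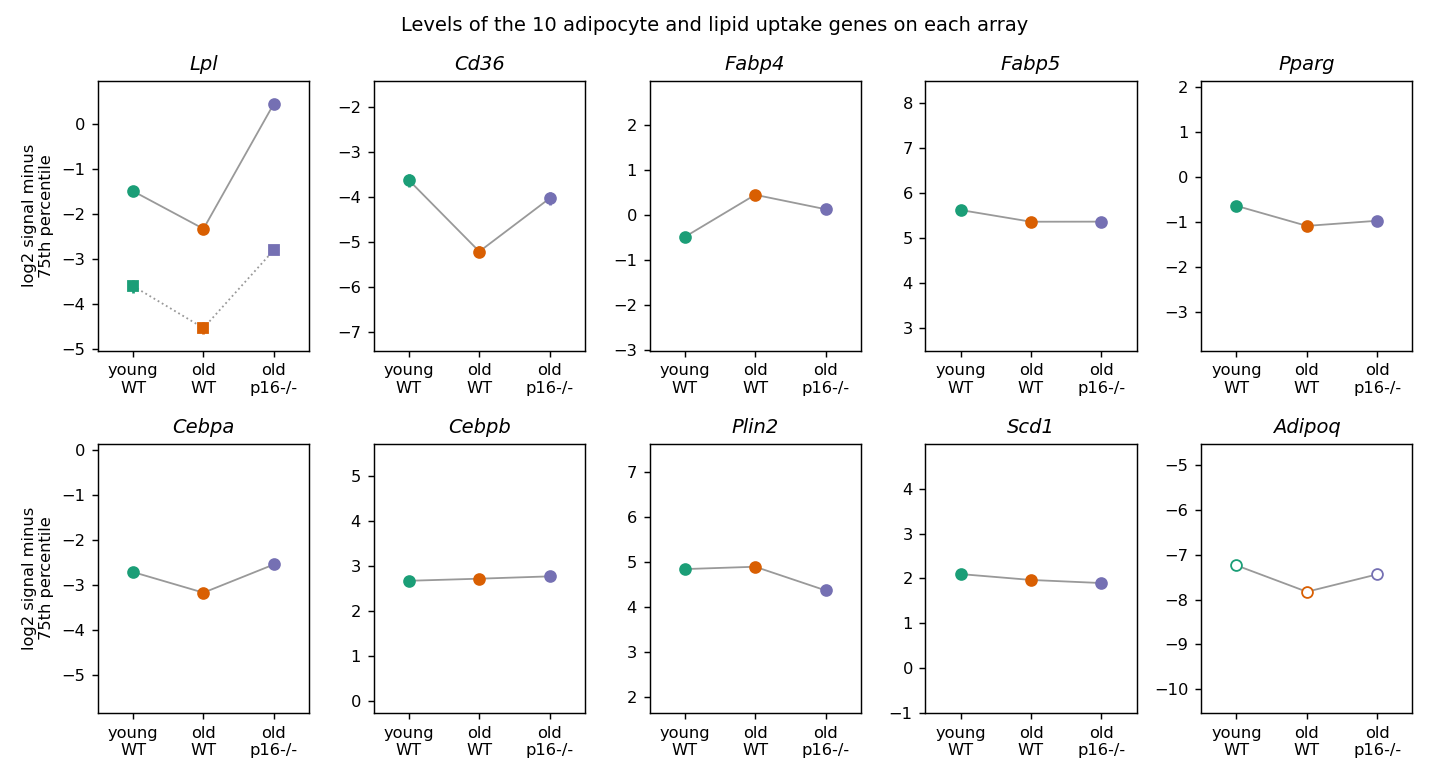
Log2 processed signal minus the array's 75th percentile (vertical axis) of each member by array (horizontal axis). Every panel spans the same number of log2 units. Squares on a dotted line are the second Lpl probe, and open circles are not well above background. Bars (mostly smaller than the points) are the spot SD of each array alone, not the combined value. Lpl runs from -2.34 on old WT to 0.45 on old p16-/-, whereas Cebpb stays between 2.67 and 2.77.

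Lpl (RefSeq NM_008509) had 2 probes, both well above background on all arrays. The brighter one gave signals of 757, 406 and 2807 (young WT, old WT, old p16-/-), or levels of -1.50, -2.34 and 0.45. Old WT was the lowest array and old p16-/- the highest, and the gaps lay well outside the spot SD. The log2 ratio was 2.78 in the old-donor comparison (spot SD 0.09), 1.95 in the outer comparison (spot SD 0.09) and -0.84 in the WT comparison (spot SD 0.11). Only 120 of 14691 genes had a higher ratio in the old-donor comparison than Lpl, a member chosen with earlier results of these data known. The second probe was dimmer, with signals of 175, 88.0 and 294 in the same order of arrays. It ranked the arrays alike, with log2 ratios of 1.74, 0.80 and -0.93, so the direction was shared by both probes and the size of the difference from old WT was 3.33-fold rather than 6.89-fold. By the second probe old p16-/- was 1.74-fold, not 2-fold, above young WT.

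Genes whose products act on or with lipoprotein lipase did not have the order of arrays seen for Lpl. The endothelial anchor gene Gpihbp1 was at 0.25 in the WT comparison and -0.28 in the old-donor comparison, at signals of 89.3 to 108. Lmf1, needed for folding of the lipase, was at 0.26 and -0.26. Angptl4, whose product inhibits the lipase, was at 0.68 and -0.35, so that it stood highest on the array where Lpl was lowest. The receptor gene Vldlr, which takes up triglyceride-rich particles beside the lipase, was at 0.93 and -0.68. By their brightest probes none of these was 2-fold apart in either comparison.

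Cd36 (NM_007643) was dim, with signals of 172, 55.0 and 125 (young WT, old WT, old p16-/-) from 1 probe and 1 spot per array. Old WT was the lowest array and the other arrays lay near each other. The log2 ratio was -1.59 in the WT comparison (spot SD 0.19), 1.18 in the old-donor comparison (spot SD 0.19) and -0.40 in the outer comparison (spot SD 0.20). Both 2-fold differences rest on the old WT signal, which is close to the lowest signal that was called above background on that array (35.7). With normexp background correction they were -0.97 and 0.62, under 2-fold. Single spots are also fallible in this range: of the spots of replicate-spotted probes with a median signal under 50, 4.03%, 8.73% and 4.93% were called well above background (young WT, old WT and old p16-/- in turn). The lower value of Cd36 on old WT is thus a measurement near the detection limit.

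Five-prime flanks are shown for Cd36, Pparg and Cebpa, detected members with a promoter sequence available that had their lowest level on old WT. Lpl and Fabp5 were also lowest there, but had no sequence available. For Pparg the spots of the old arrays overlapped. In the RefSeq table for build GRCm38.p6, 6 of the 10 members matched, with 8 windows in all (3 for Pparg); Lpl, Fabp4, Fabp5 and Scd1 did not. Each sequence is the 250 bases before an annotated start, read 5′ to 3′ on the gene's strand. Capitals mark matches on either strand to the nuclear receptor half-site AGGTCA, to a C/EBP-like core TTNNGNAA, to the CCAAT box and to TATAAA, none of which overlap in these windows. Of the Pparg windows only that of the third start is printed. Those of the first and second starts, not printed, hold the half-site, and the third does not. The Cd36 window lies on the minus strand at chr5:17835897-17836146, the Pparg window, at the third of the listed starts, on the plus strand at chr6:115421816-115422065, and the Cebpa window on the plus strand at chr7:35119043-35119292.
Cd36: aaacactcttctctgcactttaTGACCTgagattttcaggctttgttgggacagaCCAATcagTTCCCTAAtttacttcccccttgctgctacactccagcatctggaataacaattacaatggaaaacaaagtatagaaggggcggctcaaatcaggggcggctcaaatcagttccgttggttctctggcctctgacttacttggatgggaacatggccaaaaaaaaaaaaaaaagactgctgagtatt
Pparg: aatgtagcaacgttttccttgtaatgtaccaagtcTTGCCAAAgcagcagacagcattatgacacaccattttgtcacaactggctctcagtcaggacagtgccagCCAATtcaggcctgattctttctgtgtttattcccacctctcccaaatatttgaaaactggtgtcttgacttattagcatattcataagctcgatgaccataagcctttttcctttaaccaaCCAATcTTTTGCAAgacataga
Cebpa: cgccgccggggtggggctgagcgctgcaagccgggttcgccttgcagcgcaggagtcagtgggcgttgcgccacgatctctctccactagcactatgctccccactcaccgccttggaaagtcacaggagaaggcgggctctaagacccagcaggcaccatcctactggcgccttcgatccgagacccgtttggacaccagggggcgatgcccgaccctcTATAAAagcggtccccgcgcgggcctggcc

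The full PPAR response element, a direct repeat of the half-site with 1 base of any kind between the copies, was found in 0 of the 8 member windows and in 0.0335% of 32851 promoter windows of the same length. The C/EBP palindrome TTGCGCAA, which is one form of the core, was in 0 of 8 and in 0.164%. The half-site was in 4 of 8 windows, those of Cd36, Plin2 and the first and second starts of Pparg, and in 14.0% of all windows. The C/EBP-like core was in 3 of 8, those of Cd36, Adipoq and the third Pparg start, and in 36.8% of all. The CCAAT box was in 5 of 8 and in 33.8%, and TATAAA in 2 of 8 and in 12.4%. In Cebpa the TATAAA match lies 30 to 25 bases before the start. These matches describe letters only, and the array says nothing of binding at them.

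The fatty acid binding protein genes Fabp4 and Fabp5 lie near each other on chromosome 3 and did not go the same way. Fabp4 (NM_024406), the fat-cell and macrophage form also called aP2, had signals of 1531, 2813 and 2259 (young WT, old WT, old p16-/-). It was lowest on young WT and higher on both old arrays, with log2 ratios of 0.94 in the WT comparison, 0.62 in the outer comparison (spot SD 0.07 each) and -0.32 in the old-donor comparison. The first value is 1.92-fold, just short of 2-fold, and 489 of 14546 genes had a higher one. Fabp5 (NM_001272097), the epidermal form, was bright on all arrays, at 105882, 84796 and 85164. It was 0.26 log2 units lower on both old arrays than on young WT, at -0.26 and -0.26, and at 0.00 between the old arrays (spot SD 0.06). Of the genes between and beside them in the cluster, Fabp9 and Fabp12 failed the background call on all arrays. The myelin form Pmp2 was dim, at 71.7, 221 and 10.7, and not well above background on old p16-/-, and the flanking gene Impa1 was at -0.07 and 0.09 in the comparisons of old WT with young WT and of the old arrays.

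Pparg (NM_011146), the PPAR-gamma gene, is the member measured best, because its probe was spotted 10 times on each array. The spots ran on young WT from 1284 to 1437 with a median of 1375, from 920 to 1066 with a median of 957 on old WT, and from 1011 to 1100 with a median of 1047 on old p16-/-. All 10 young WT spots lay above every spot of either old array, while the spots of the old arrays overlapped. The mean level over spots was -0.64 ± 0.05, -1.08 ± 0.06 and -0.97 ± 0.04 for young WT, old WT and old p16-/- (SD between 10 spots of 1 array). The log2 ratio was -0.45 in the WT comparison, -0.33 in the outer comparison and 0.11 in the old-donor comparison. The repeat spots fix the level of each hybridised sample, at 1.36-fold between young and old WT, but not its variation between mice. The probe does not tell the transcripts from the different Pparg starts apart as far as the files say.

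**Figure D2:**
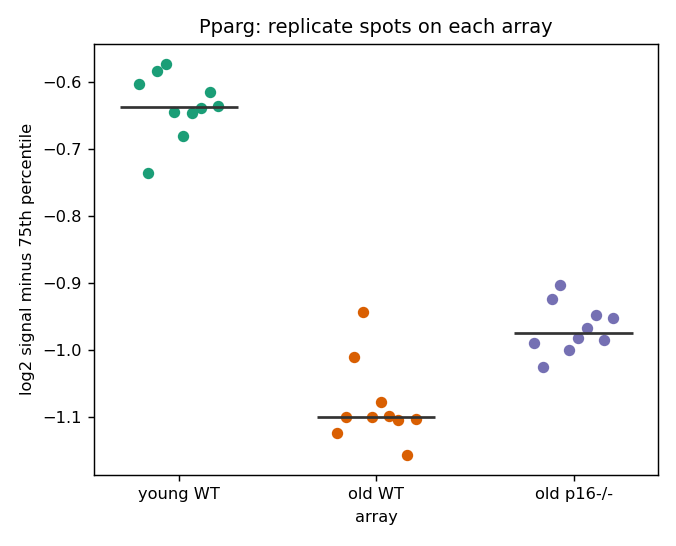
Log2 processed signal minus the array's 75th percentile (vertical axis) for the 10 replicate spots of the Pparg probe on each array (horizontal axis). Each point is 1 spot and the line is the median: -0.64, -1.10 and -0.98 (young WT, old WT, old p16-/-). The young WT spots sit above all others, and the old arrays overlap.

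Cebpa (NM_007678), the C/EBP-alpha gene, had signals of 326, 228 and 353 (young WT, old WT, old p16-/-). Its order of arrays was that of Lpl, with old p16-/- highest and old WT lowest. The log2 ratio was -0.46 in the WT comparison and 0.63 in the old-donor comparison (spot SD 0.11 each), and 0.17 in the outer comparison. Cebpb (NM_009883), the early-acting C/EBP-beta gene, was the steadiest member, at 13608, 13483 and 14019. Its log2 ratios were 0.05, 0.05 and 0.10 in the comparisons of old WT with young WT, of the old arrays and of old p16-/- with young WT, against a spot SD of 0.06. The paralog Cebpd, also induced early in adipogenesis, was at -0.18, 0.07 and -0.11.

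Plin2 (NM_007408) encodes the coat protein perilipin-2, found on lipid droplets of most cell types. It was at 61049, 60712 and 42288 (young WT, old WT, old p16-/-), so the WT arrays lay together and old p16-/- below them. The log2 ratio was -0.53 in the old-donor comparison and -0.47 in the outer comparison (spot SD 0.06 each), and 0.05 between the WT arrays. Plin2 was thus lower on the array where Lpl was highest. Scd1 (NM_009127), a stearoyl-CoA desaturase that makes monounsaturated fatty acids, was at 9148, 8018 and 7666, with log2 ratios of -0.13 in the WT comparison and -0.07 in the old-donor comparison (spot SD 0.07 each). Its neighbour on chromosome 19, Scd2, was at -0.19 and 0.11. The dimmer Scd3 was at 0.59 and -0.89 by its brightest probe, but a second probe above background gave -0.13 and 0.01.

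**Figure D3:**
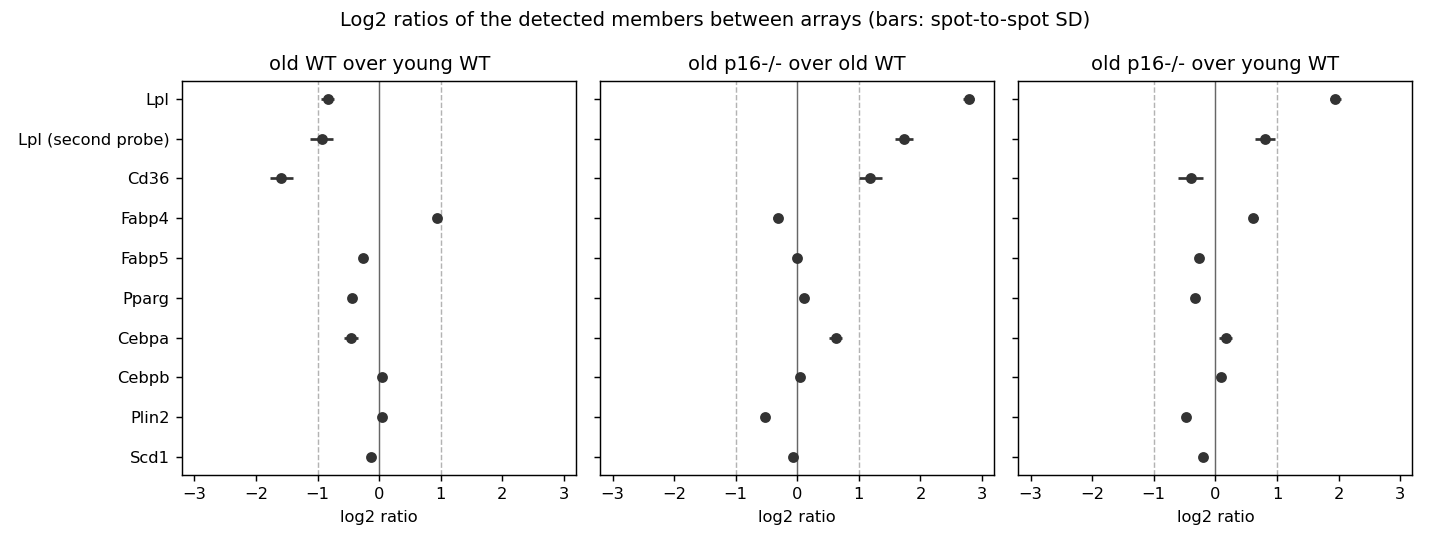
Log2 ratio (horizontal axis) of the 9 members that were well above background, in each comparison, with the second Lpl probe on its own row. Bars are the spot SD and dashed lines mark 2-fold. Lpl at 2.78 and Cd36 at 1.18 lie past 2-fold in the old-donor comparison, and Cd36 at -1.59 in the WT comparison.

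Across the 9 detected members, 4 had their highest level on young WT, 3 on old p16-/- and 2 on old WT. The lowest level was on old WT for 5 of 9 (Lpl, Cd36, Fabp5, Pparg and Cebpa), on young WT for 2 (Fabp4 and Cebpb) and on old p16-/- for 2 (Plin2 and Scd1). For Fabp5 the margin between the old arrays was within the spot SD. The span over the 3 arrays was 2.78 for Lpl, 1.59 for Cd36 and 0.94 for Fabp4, and between 0.10 and 0.63 for the other 6.

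Other genes of the pathways, 119 outside the members, were read from 5 lists. Between old WT and young WT 97 were counted, of which 3 were at least 2-fold higher and 3 lower (6.19% in all, beside 6.09% of all genes). Between old p16-/- and old WT 104 were counted, with 6 higher and 7 lower (12.5%, beside 12.5%). Between old p16-/- and young WT 102 were counted, with 7 higher and 8 lower (14.7%, beside 13.3%). The medians were -0.02, 0.03 and 0.02. The wider pathway was 2-fold apart about as often as all genes.

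Regulators of adipogenesis held 26 genes, all above background on at least 1 array. Dlk1, the preadipocyte factor that restrains adipogenesis, had signals of 1560, 578 and 198 (young WT, old WT, old p16-/-). It was lowest on old p16-/-, at -1.37 in the WT comparison, -1.55 in the old-donor comparison and -2.92 in the outer comparison. A second probe gave -1.41 for the WT arrays and was not well above background on old p16-/-. The early B-cell factor gene Ebf1, which takes part in fat-cell commitment, and Gata2, a brake on it, were within 2-fold between neighbouring groups but at -1.08 and -1.41 in the outer comparison. Ebf2, which marks brown-fat precursors, was at 887, 437 and 40.3, the last not well above background, so that it was lower by at least the bound of -3.22 in the old-donor comparison. It was singled out after its values were seen, as were Wnt10b and Rxra. Wnt10b, an inhibitor of adipogenesis, was at 1.17 in the WT comparison and -1.42 in the old-donor comparison, at signals of 387 or less. Rxra, a partner of PPAR-gamma, was at 1.07 in the WT comparison by its brightest probe and at 0.07 by another.

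Regulators within 2-fold included the sterol factors Srebf1, at 0.05 and -0.40 in the WT comparison and the old-donor comparison, and Srebf2, at -0.23 and -0.20. A second probe of Srebf2 gave 0.98 and -1.82. The Krüppel-like factor gene Klf5 was at 0.58 in the old-donor comparison. Klf15, named after its values were seen, was at 0.82 there and past 2-fold in the outer comparison, a bound of 1.07, at signals of 112 or less.

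In lipid uptake and transport, 22 genes were counted between the WT arrays, with 0 higher by 2-fold and 2 lower. Of all genes, 2.92% were higher and 3.17% lower in that comparison. Apoe, which carries lipid out of and into cells and is abundant in macrophages, had signals of 1351, 585 and 205, with log2 ratios of -1.15 in the WT comparison, -1.52 in the old-donor comparison and -2.67 in the outer comparison. The macrophage scavenger receptor gene Msr1, named after its values were seen, was at 147 on young WT and not well above background on the old arrays, a bound of -1.98. The caveolin gene Cav1, needed for membrane caveolae that are abundant in fat cells, was at 1619, 1942 and 777, or -1.33 in the old-donor comparison, and just past 2-fold lower than young WT. Among those within 2-fold, the heart-type Fabp3 was at -0.96 and the brain-type Fabp7 at 0.53 in the old-donor comparison, and the lysosomal lipase gene Lipa at 0.67. Lipc, Lipg and Slc27a2 failed the background call on all arrays.

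In lipid droplet and lipolysis genes, 0 of 19 were 2-fold apart between the WT arrays, beside 6.09% of all genes. Beside 5.89% of all genes, 2 of 21 were at least 2-fold higher on old p16-/- than on old WT. These were the lipase genes Pnpla3, at signals of 72.9, 70.1 and 358 (2.35), and Lipe (hormone-sensitive lipase), a bound of 1.72 with a signal of 137 on old p16-/-. Both were dim and were named after their values were seen. The main triglyceride lipase gene Pnpla2 was at -0.02 and 0.11, and the droplet coat genes Plin3 and Plin4 at 0.07 and 0.24 in the old-donor comparison. Plin1, Plin5, Cidec and Fitm1 failed the background call on all arrays.

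In fatty acid and triglyceride synthesis, 0 of 24 genes were 2-fold apart between the WT arrays and 0 of 25 between the old arrays. Of all genes, 6.09% were apart in the WT comparison, 12.5% in the old-donor comparison and 13.3% in the outer comparison. The fatty acid synthase gene Fasn was at -0.16 and 0.32, the acetyl-CoA carboxylase genes Acaca and Acacb at -0.14 and 0.24 and at 0.53 and 0.45, in the WT comparison and the old-donor comparison. Gpd1, a glycerol phosphate dehydrogenase, was the one gene 2-fold apart from young WT on old p16-/-, at 1.30 and a signal of 355, and was named after its value was seen.

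In adipokines and receptors, 8 of 16 genes were counted between the WT arrays and 11 between the old arrays. Apod, a lipid-carrying lipocalin, was at 19637, 28866 and 13015, or 0.62 and -1.15. A second, dimmer probe was at 383, 539 and 10.9, the last not well above background, so the probes differed in the size of the drop. The retinol carrier gene Rbp4, named after its values were seen, was highest on old p16-/-, at 84.7, 200.3 and 560 (1.30 and 1.48). The receptor genes Adipor1 and Adipor2 were at -0.04 and 0.07 in the old-donor comparison, and the leptin receptor gene Lepr at -0.11. Lep, Cfd, Adig and Sfrp5 failed the background call on all arrays.

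**Figure D4:**
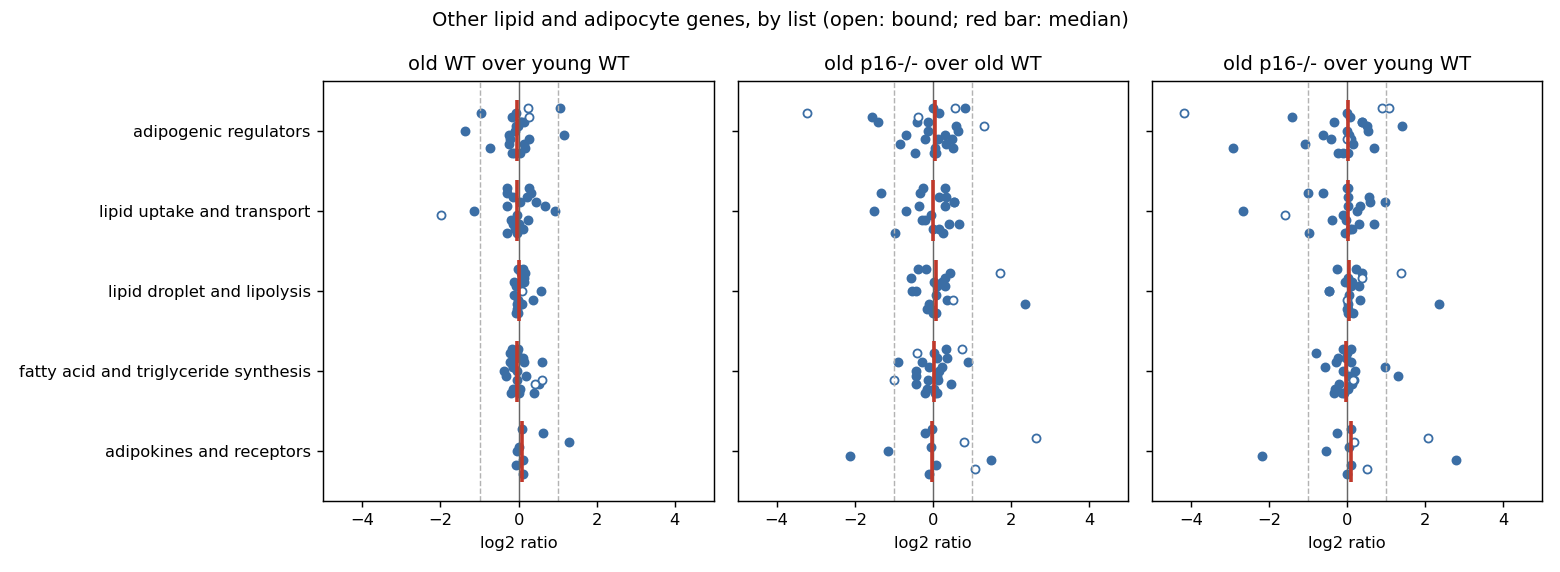
Log2 ratio (horizontal axis) of the other pathway genes in 5 lists, for each comparison. Each point is 1 gene by its brightest probe, open points are bounds, red bars are list medians and dashed lines mark 2-fold. Medians lie between -0.04 and 0.10 in every list and comparison, and Dlk1 at -1.37 and Apoe at -1.15 in the WT comparison are among the points outside 2-fold.

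Macrophage markers, from cells that also express several of the members, differed between the arrays. Of 18 macrophage markers 17 were on the array, and 16 were well above background on each WT array and 8 on old p16-/-. Their summed signal in units of the 75th percentile was 22.2, 13.4 and 9.10. The largest single part of that sum is Itgam, at signals of 19992, 19071 and 14934. Another Itgam probe above background was far dimmer, at 136, 65.2 and 55.7. In the WT comparison 14 of 16 were at least 2-fold lower (median -2.10), beside 3.17% of all genes. On old p16-/- the defining genes Adgre1, C1qa, Lyz2 and Tyrobp all failed the background call, whereas Csf1r passed it at 1520. In the old-donor comparison 10 of 17 were at least 2-fold lower and 3 higher, beside 6.61% and 5.89% of all genes. The macrophage markers that were higher were Mrc1 at 2.22, Aif1 at 1.31 and Ptprc at a bound of 1.32. Cd36, Apoe and Msr1 were lower on old WT than on young WT, the direction of most macrophage markers, as were Lpl at -0.84 and Fabp5 at -0.26. Plin2 at 0.05 and Fabp4 at 0.94 were not. The part of macrophage RNA in those values was not tested. In the old-donor comparison Lpl was at 2.78, Cd36 at 1.18 and Fabp4 at -0.32, and the macrophage marker median was -1.73. In the outer comparison Lpl was at 1.95, Fabp4 at 0.62 and Cd36 at -0.40, and the macrophage marker median was -4.08. In each of these medians 10 of 17 values are bounds. The part of macrophage RNA in these member values was not tested either. In bulk RNA, fewer cells of a type and less RNA per cell cannot be told apart.

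Endothelial markers, another source of Fabp4, Cd36 and Gpihbp1, had summed signals of 4.72, 4.67 and 4.60, and Cdh5, Tie1, Emcn, Cldn5 and Esam failed the background call on all arrays. Most of that sum is Kdr and Egfl7; Tek was at 577, 365 and 242 (-1.20 in the outer comparison), and a second, dimmer Kdr probe was at -1.24 there. Keratinocyte markers, a source of Fabp5, summed to 7.99, 6.94 and 8.32, with Krt1 not well above background. A large part of that sum is Trp63, at 5963, 5725 and 5124 by its brightest probe. A second, far dimmer Trp63 probe was at 13.5, 65.0 and 155, the first not well above background. Within that list Krtdap was at -1.12 in the WT comparison, and Lor at -1.25 and Ivl at a bound of -1.23 in the old-donor comparison. Sebocyte markers, a source of Scd1, summed to 0.16, 0.17 and 0.17, with 6 of 8 not well above background anywhere. Among fibroblast markers Thy1 was at -3.99 and Pdgfra, a receptor also found on fat-cell progenitors, at 1.60 in the old-donor comparison. The thyroid hormone deiodinase gene Dio2, on the brown-fat list, was at 185, 401 and 5415. Zic1 of the same list went the other way, at 3754, 3777 and 68.0 (-5.80 in the old-donor comparison), where a second probe gave -0.91. Ucp1, Elovl3 and Lhx8 were not well above background.

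The donors also differed in sex-linked expression. Eif2s3y, on the Y chromosome, had a signal of 6819 on young WT and failed the background call on both old arrays, whereas Xist was at 1548 and 1387 on the old arrays and not above background on young WT. Age and sex cannot be told apart in any comparison with young WT, Fabp4, Pparg and Cd36 included. Cdkn2a, the gene of the deleted p16, was at 62705, 65464 and 28065; its probe may lie outside the deleted part, so it does not check the genotype.

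The genes with a pattern over the 3 arrays most like that of Lpl were found among 8905 genes above background on all arrays whose brightest signal reached 1000, by Euclidean distance of centred log2 levels. In order of likeness they were Wfdc2, B020031M17Rik, Ly6g6c, S100a8, Trpm1, Pnma2, Gabra2 and Map1b, at distances of 0.13 to 0.48. The nearest, Wfdc2, had signals of 419, 230 and 1410 and log2 ratios of -0.80 in the WT comparison and 2.61 in the old-donor comparison. None of the 8 is a gene of the lists above. Likeness over 3 arrays is a weak measure, since 3 points fix few patterns.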

How the data were processed

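RNA of day 8 cells was measured on 3 one-colour (Cy3) Agilent arrays, 1 per group, all on 1 slide. The deposited scanner files hold linear intensities made with Feature Extraction 11.5.1.1, per the file headers, background-subtracted, spatially detrended and not normalized between arrays. The deposited flags are 0 or 1 calls of Feature Extraction. The deposited series value table held the same intensity for 39030 of 39030 single-spot probes on each array.

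Here, 1377 control spots and spots marked as outliers (246 to 267 per array) were left out, and 150 probes thereby dropped. Log2 signals were averaged over spots, and the 75th percentile over probes was subtracted (2138, 2051 and 2058 for young WT, old WT and old p16-/-). Accessions named 27413 of 39279 probes through RefSeq's GRCm38.p6 table; the probe design is on mm9, so no probe coordinates are given, and the coordinates of the promoter windows are those of GRCm38.p6. A gene took its brightest probe. Where 1 array was not well above background the ratio is a bound, against the higher of the dim level and that array's lowest detected level.

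No test was run. Genes are described at 2-fold, with the share of all genes past it. The ratio code was tested on simulated data. Some list genes are counted but not reported here by name. The members and lists were chosen with earlier results of these data known. Text names all members; per list, genes 2-fold apart with a signal of at least 1000, and in list order some that were not; and genes nearest in pattern to the widest-ranging member. Alternatives (9) covered background correction, scaling, outlier spots, probe choice, value source and filters. Normexp (limma 3.58.1, offset 50) used the median spot signal in place of the planned mean. Python 3.11.15 did the rest.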

Additional observations from a re-analysis of the deposited data

How the results depend on the processing

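No paired analysis was possible because each group had 1 array. Of 236 member log2 ratios recomputed under the 9 alternatives, 223 moved by less than the spot SD and 13 by more; 3 changed sign, all between -0.09 and 0.00 (Fabp5 with quantile normalization, at -0.09, and with the series value table, at -0.00, and Cebpb with quantile normalization, at -0.01, each in the old-donor comparison). Lpl stayed past 2-fold in the old-donor comparison under all alternatives, from 2.26 with the mean over its probes to 2.82. Cd36 left the 2-fold class with normexp, so that members lower on old WT than on young WT numbered 0 in place of 1, and members higher on old p16-/- than on old WT numbered 1 in place of 2; requiring a signal of at least 1000 gave the same 0 and 1, since Cd36 never reached it. An offset compresses ratios of dim probes by construction. With normexp, higher pathway genes numbered 0 in place of 3 in the WT comparison, 3 in place of 6 in the old-donor comparison and 4 in place of 7 in the outer comparison, and higher genes overall numbered 256 in place of 425, and lower ones 266 in place of 461, in the first comparison (563 and 655 in place of 865 and 971 between the old arrays, 603 in place of 906 higher in the third). Requiring both arrays to be well above background gave 2 and 4 higher pathway genes in the latter comparisons. A signal of at least 1000 left 0 higher pathway genes in all 3 comparisons and 3 lower ones in place of 7 between the old arrays. Without a background filter higher pathway genes numbered 5 in the WT comparison and 13 in the outer comparison. Signal over background limits Cd36 most, and the number of arrays limits every value.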
